A study of Mus musculus with 9 samples.

Results

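A set of 10 genes of fatty acid handling was followed in stimulated mouse macrophages, out of 15343 genes in the table. They were matched by gene symbol, with no threshold on a measured value, from a list drawn up when earlier results of these data were known. For transport and uptake they are Slc27a1 (Entrez 26457), Slc27a4 (26569), Slc27a6 (225579) and Cd36 (12491). The binding proteins are Fabp4 (11770) and Fabp5 (16592), and the long-chain acyl-CoA synthetases are Acsl1 (14081), Acsl3 (74205), Acsl4 (50790) and Acsl5 (433256). All 10 were found, and all 10 passed the filter on low values, for which 3 or more of the 9 libraries had to reach a normalized count of 10. A normalized count is the number of reads on a gene divided by 1 size factor per library. Slc27a6, the scarcest of the 10, was at or above 10.7 in each library, so no group alone carried a gene past the filter.

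The libraries came from primary intraperitoneal macrophages of wild-type (WT) mice of a strain written CF7B1/6. Every library was stimulated with lipopolysaccharide (LPS), a bacterial product, at 100 ng/ml for 6 h. The LPS group (LPS 1 to 3) has no pretreatment in its labels, the DHA + LPS group (DHA 1 to 3) first received 100 µM docosahexaenoic acid (DHA) for 1 h, and the cpdA + LPS group (cpdA 1 to 3) first received 10 µM cpdA, a small-molecule agonist of Gpr120, for 1 h. The labels give no vehicle for the LPS group, and they do not say whether the 3 libraries of a group came from separate animals or cultures, so p-values measure only the spread between these libraries. No unstimulated libraries were analysed here. The comparisons ask how either pretreatment left these genes in LPS-stimulated cells, and the last asks how the pretreatments differed, at doses that were not the same.

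Long-chain fatty acids reach the cell interior with the help of Cd36, a scavenger receptor and fatty acid translocase, and of the fatty acid transport proteins of the Slc27 family. Inside, fatty acid binding proteins carry them through the cytosol, and acyl-CoA synthetases join them to coenzyme A, which traps them in the cell and commits them to oxidation, membrane lipids or storage. DHA, a polyunsaturated omega-3 fatty acid, is itself a long-chain fatty acid that enters by these steps. In macrophages, Cd36 also takes up oxidized lipoproteins, and Fabp4, Fabp5 and Acsl1 have been studied as links between lipid load and inflammation. The nuclear receptor PPARγ, which binds fatty acids, is a known activator of Cd36 and Fabp4.

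Recovered depth ranged from 13797079 reads in DHA 1 to 37572822 in cpdA 2. LPS 3 and cpdA 3 stood apart from their groups: over 11364 genes the median absolute log2 difference was 0.224 between LPS 3 and either other LPS library, and 0.303 and 0.308 between cpdA 3 and the other cpdA libraries. Between LPS 1 and LPS 2 it was 0.0785. DHA 1 and cpdA 1 come from different groups but were the closest of all 36 pairs at 0.0735, and over the 10 genes their median difference was 0.0496. All 8 macrophage markers were present, with a summed normalized count from 562622 to 588638 in 7 libraries, 332923 in LPS 3 and 386341 in cpdA 3. Summed markers of resident peritoneal macrophages, 6 of 6 listed, did not set these libraries apart. They were at 501.4 in LPS 3 and 534.3 in cpdA 3, against 497.7 to 580.4 elsewhere. None of the 6 adipocyte markers was listed in the table. Summed neutrophil markers, 3 of 6 listed, were at 76.7 in LPS 3 and 57.0 in cpdA 3, against 294.6 to 413.9 elsewhere. Summed mesothelium and fibroblast markers, 6 of 6 listed, were highest in LPS 3 (32111, against 20783 to 25179 elsewhere), and summed nuclear transcripts, a sign of RNA quality, were highest in cpdA 3 (53798, against 12259 to 23374). The part of these differences in the results below was not tested, and in bulk RNA fewer cells of a type and less RNA per cell cannot be told apart. Changes against LPS that LPS 3 and cpdA 3 moved by over 1.5 times, or turned in sign, are given with and without them. Leaving them out narrows the spread between libraries by construction.

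Per kilobase of exon, Fabp5 and Cd36 were the most abundant of the 10 transcripts and Slc27a6 was by far the scarcest. In the LPS group the level per kilobase was 24357 ± 7941 for Fabp5 and 18644 ± 1497 for Cd36 (SD, n = 3), and the libraries of this neighbouring pair overlapped. Acsl1 followed at 3265, Fabp4 at 2239 and Acsl5 at 2119, and neighbours among these 3 also overlapped. The next steps down did not overlap: Acsl4 was at 870, Slc27a1 at 382, Slc27a4 at 264, Acsl3 at 124 and Slc27a6 at 5.29. The order of the group means was the same in all 3 groups. The neighbours that overlapped changed between groups: in DHA + LPS only Acsl1 and Fabp4 did, and in cpdA + LPS the overlapping neighbours were Fabp5 and Cd36, Acsl1 and Fabp4, Acsl4 and Slc27a1, and Slc27a1 and Slc27a4. Exon lengths came from a later build than the authors' alignment, so these levels per kilobase are approximate.

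**Figure D1:**
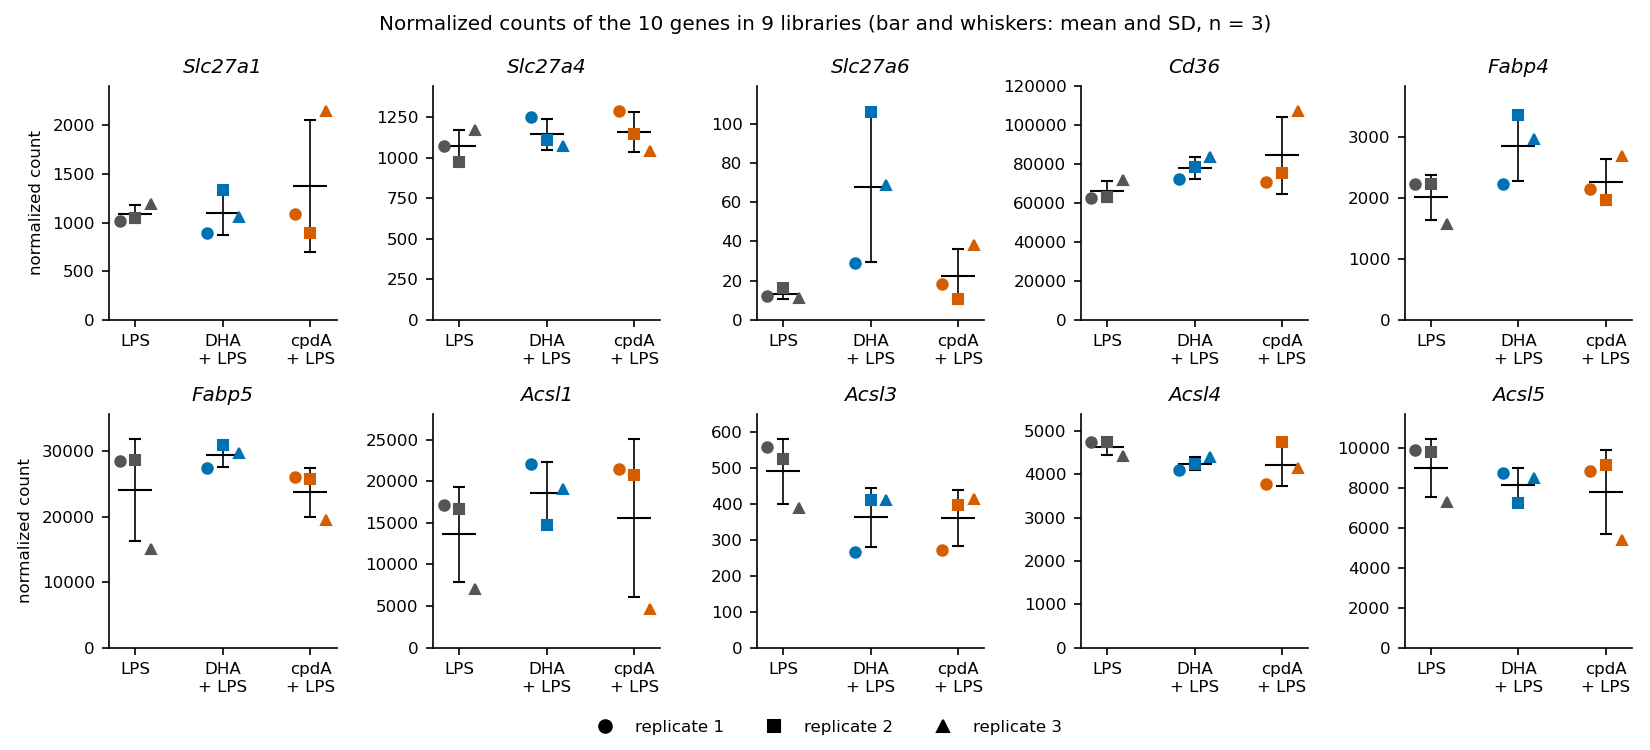
Normalized counts of the 10 genes by group, with 1 symbol per library, the shape giving the replicate number, and the mean and SD of 3 libraries in black. The vertical axes start at 0 and differ between genes. In Slc27a6 all DHA libraries lie above all LPS libraries, and in Acsl1 and Fabp5 the lowest symbols are LPS 3 and cpdA 3.

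With DHA before LPS, Slc27a6 had 5.18 times the mean normalized count of the LPS group, Fabp4 and Cd36 had modestly higher counts and Acsl4 modestly lower ones, each without overlap between the groups. By limma with Benjamini-Hochberg adjustment over all 13895 genes, 0 of the 10 passed at an adjusted p under 0.05, where 1 gene in all did (0.00720% of those tested). At an unadjusted p under 0.05 were 2 of the 10, Slc27a6 and Fabp4, against 14.2% of all genes. The groups did not overlap for 4 of the 10, 3 higher (13.0% of all genes) and 1 lower (15.0%), and 28.0% of all genes were apart in either direction. Among the 7 libraries without LPS 3 and cpdA 3, 3 were higher and 3 lower without overlap, where 40.6% of all genes were apart. The median log2 change of the 10 was 0.17, with 6 positive and 4 negative, beside -0.00067 over all genes. The same LPS libraries served as controls for both pretreatments.

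With cpdA before LPS, none of the 10 was apart from LPS in all libraries, where 22.9% of genes were. By limma 0 of 10 passed (1 gene in all, 0.00720%), and 0 were at an unadjusted p under 0.05, against 14.6% of genes. In the 7 libraries 3 were higher and 4 lower without overlap, where 49.5% of all genes were apart. The median log2 change was 0.07, with 7 positive and 3 negative, beside -0.0043 over all genes. The 4 transport genes were all positive, and 3 of the 4 acyl-CoA synthetases were negative, beside 49.4% of all genes positive. Without LPS 3 and cpdA 3, Slc27a4 (0.25) and Cd36 (0.22) stayed positive, but Slc27a1 was at -0.067 and Slc27a6 at 0.00. The synthetases kept their signs in that fit.

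Set directly against DHA + LPS, cpdA + LPS was lower in Fabp5 in every library and not apart in the other 9 genes, where 5.65% of all genes were apart. In the 7 libraries 1 was higher and 3 lower, where 19.0% of all genes were apart. None of the 10 and none of all 13895 genes passed the limma test of this difference (0%). At an unadjusted p under 0.05 was 1 of the 10, Slc27a6, and 142 genes in all (1.02%). In edgeR and DESeq2 on recovered reads 0 genes passed, with 157 and 145 at an unadjusted p under 0.05. A moderated F test over the 3 groups also called 0 of the 10, and 1 gene in all (0.00720%).

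**Figure D2:**
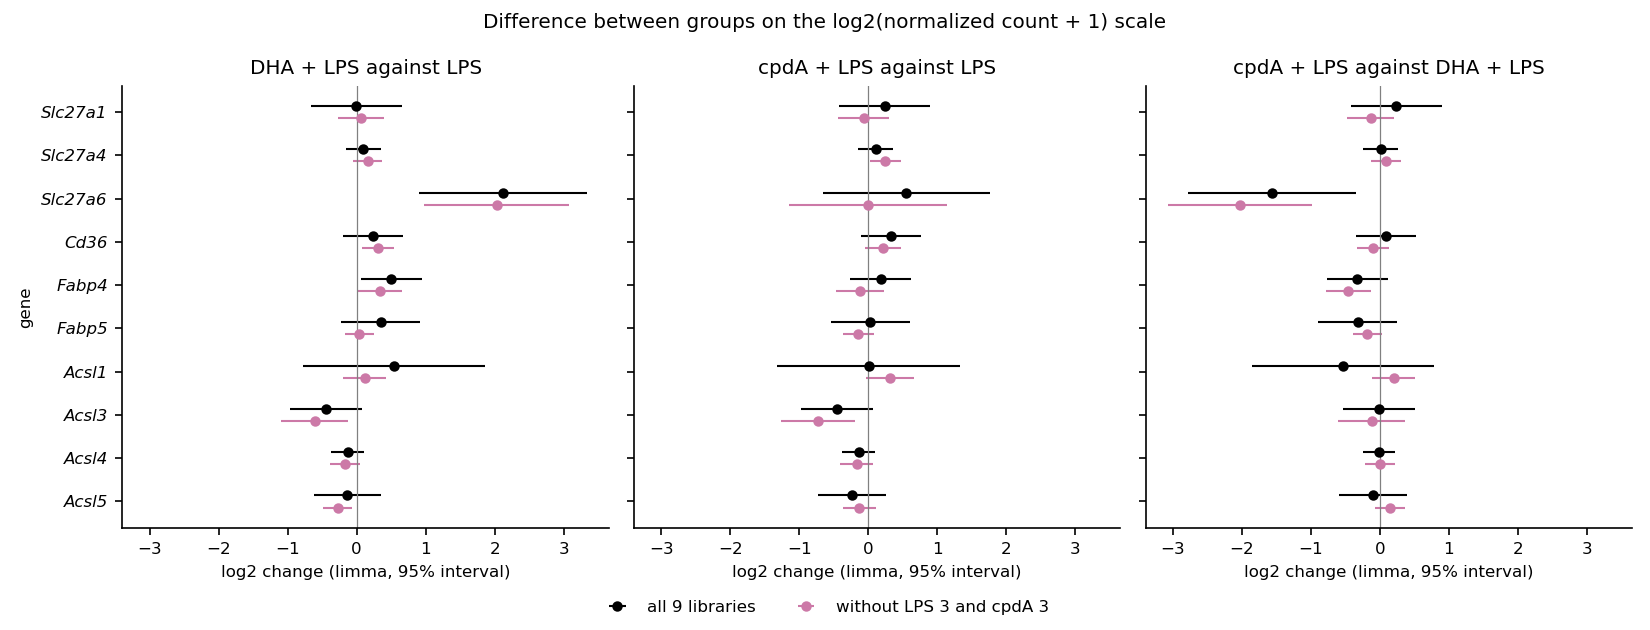
Log2 change of each gene in the 3 comparisons with 95% intervals from limma, for all 9 libraries (black) and without LPS 3 and cpdA 3 (pink). Of the comparisons with LPS, the DHA interval of Slc27a6 is the 1 that lies wholly above 0.5 in both fits, and the Acsl1 intervals of the 9-library fit are the widest.

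Slc27a6, a fatty acid transport protein best known from heart, had normalized counts of 12.0, 16.1 and 11.3 in LPS 1 to 3. In DHA 1 to 3 the counts were 29, 106 and 69, and in cpdA 1 to 3 they were 18, 10.7 and 38. All DHA libraries lay above all LPS libraries, with DHA 1 nearest to them, and cpdA 3 lay above DHA 1. The gene rested on 11 to 14 reads per LPS library, 13, 94 and 62 reads in DHA 1 to 3, and 17, 13 and 42 in cpdA 1 to 3. By exact 95% counting intervals, which cover counting error only, DHA 1 (15.4 to 49.6) overlapped each LPS library, the highest of which reached 27.0, whereas DHA 2 (85.7 to 130) and DHA 3 (52.9 to 88.5) did not. In DHA 1, the shallowest library, 1 read was worth 2.23 normalized counts.

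The log2 change of Slc27a6 with DHA was 2.12 (SE 0.54; 95% interval 0.91 to 3.33), which did not pass in the limma fit of all libraries (adjusted p = 0.231). DESeq2 on the recovered reads called it higher (log2 change 2.40, adjusted p = 0.00771), where it called 315 of 13616 genes (2.31%), and edgeR did not (2.41, adjusted p = 0.221; 3 genes in all, 0.0216%). Without LPS 3 and cpdA 3 it rose by 2.03 (limma adjusted p = 0.0289), where 943 of 13895 genes passed (6.79%). With the replicate number as a block in that fit the adjusted p was 0.0971. Leaving out cpdA 3 alone, a library outside this comparison, gave an adjusted p of 0.0421 (373 genes called, 2.68%), because the 3 groups share 1 estimate of the spread. The change ranged from 1.71 without DHA 2 to 2.63 without DHA 1.

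With cpdA the log2 change of Slc27a6 was 0.55 (95% interval -0.66 to 1.77, limma adjusted p = 0.666), and without LPS 3 and cpdA 3 it was 0.00. The difference between pretreatments, cpdA + LPS minus DHA + LPS, was -1.57 (95% interval -2.78 to -0.35), with a limma adjusted p of 1.00. The interval leaves out 0 only before adjustment over the genes tested.

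Among 11364 genes with a mean of at least 50, the 3 with the pattern most like that of Slc27a6 over the 9 libraries were Prune2, Fam214a and Nipal3. Their root mean square differences from it, on the log2(value + 1) scale with each gene centred on its mean, were 0.32, 0.35 and 0.39, beside 1.09 for the spread of Slc27a6 itself. Nipal3 had 106.5, 104.9 and 112.6 normalized counts in LPS 1 to 3, 144.9, 638.2 and 352.8 in DHA 1 to 3, and 161.9, 124.6 and 359.5 in cpdA 1 to 3. DHA 2 and DHA 3 were high in each of the 3 genes, and DHA 1 was the DHA library nearest to the LPS libraries. In each of them cpdA 3 was also above all LPS libraries and DHA 1, at 66.1 in Prune2, 96.9 in Fam214a and 359.5 in Nipal3.

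**Figure D3:**
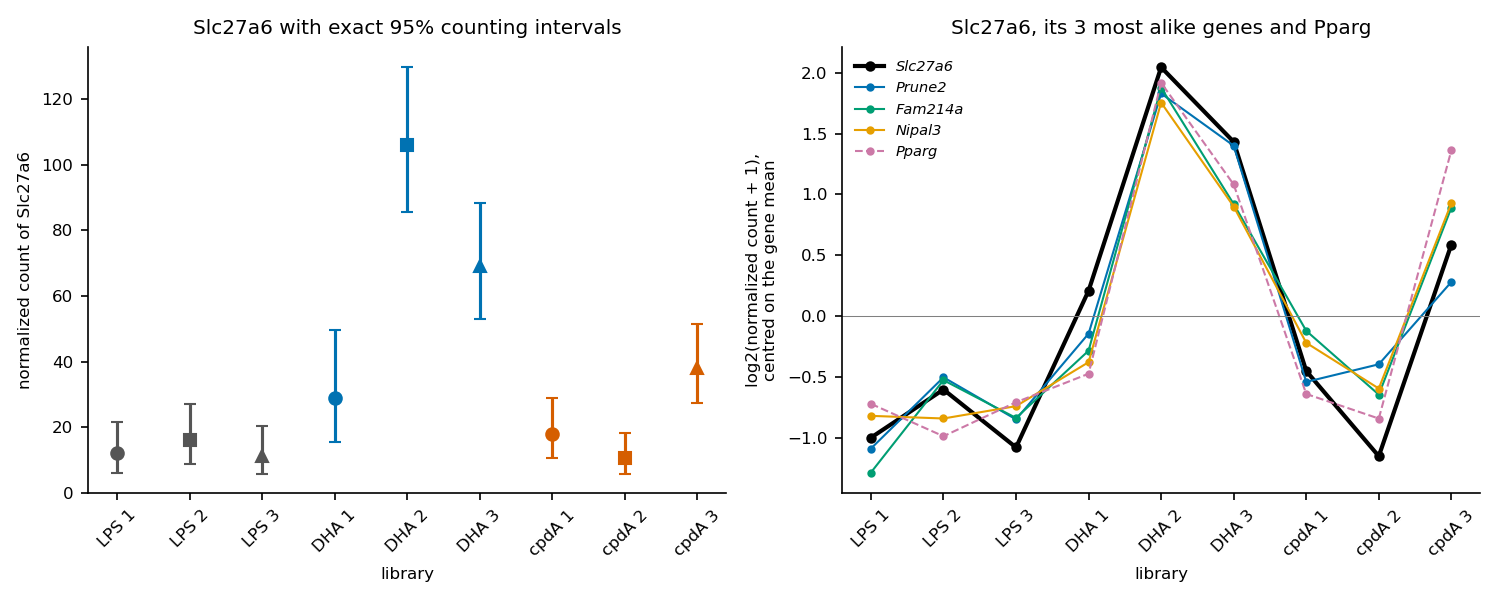
Left, the normalized count of Slc27a6 in each library with its exact 95% counting interval. Right, log2(normalized count + 1) of Slc27a6, of the 3 genes most like it and of Pparg, each centred on its mean over the 9 libraries. All 5 lines peak in DHA 2, and the second highest library is DHA 3 or cpdA 3.

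Cd36 was far above the other transport genes, with normalized counts of 62485, 63269 and 72022 in LPS 1 to 3. The counts were 72154, 78492 and 83552 in DHA 1 to 3 and 70762, 75324 and 107259 in cpdA 1 to 3. Every DHA library was above every LPS library, though DHA 1 exceeded LPS 3 by little, and cpdA 3 was the highest of the 9. The log2 change was 0.24 with DHA (95% interval -0.19 to 0.68, limma adjusted p = 0.578) and 0.34 with cpdA (limma adjusted p = 0.446). Without LPS 3 and cpdA 3 the cpdA value was 0.22 (limma adjusted p = 0.542) and the DHA value was 0.31 (limma adjusted p = 0.105). DESeq2 on those 7 libraries, a test chosen after seeing the data, called Cd36 higher with DHA (adjusted p = 0.00715), where it called 1345 of 12817 genes (10.5%). Endothelium and platelets also carry Cd36: summed endothelial markers, 4 of 6 listed, were at 394.0 to 680.4 in LPS, 294.8 to 321.0 in DHA + LPS and 163.0 to 370.7 in cpdA + LPS. Summed platelet markers, 3 of 5 listed, were at 380.6 to 554.3, 518.7 to 726.7 and 597.7 to 674.0, and the part of either in the Cd36 values was not tested.

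The promoter window of Cd36, taken from RefSeq on GRCm38.p6, is shown because PPARγ acts on this gene. Windows of 250 bases before to 50 after the start were found for 7 of the 10 genes, 10 windows in all since Slc27a1 has 3 and Acsl1 has 2, with none for Slc27a6, Fabp4 and Fabp5. In 32851 such windows a DR1 element, AGGTCA repeated in the same direction after 1 base of any kind, as bound by PPAR and RXR pairs, was found on either strand in 0.0396%, and in none of these 10 windows. The half-site AGGTCA, which every DR1 also contains, was in 16.3% of windows and, of the 10, in that of Cd36. The excerpt, on the minus strand at chr5:17836059-17836146, has the half-site in capitals as its reverse complement, starting 228 bases before the start:
Cd36: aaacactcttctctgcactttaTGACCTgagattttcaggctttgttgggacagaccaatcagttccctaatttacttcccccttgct

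Slc27a1 and Slc27a4, transport proteins that also have acyl-CoA synthetase activity, were present in every library. Slc27a1 had 1018.4, 1047.5 and 1190.0 in LPS 1 to 3, 891.7, 1337.3 and 1061.7 in DHA 1 to 3, and 1084.5, 896.2 and 2147.7 in cpdA 1 to 3. The groups overlapped, and cpdA 3 was the highest of the 9 libraries. Its log2 change was -0.0013 with DHA (limma adjusted p = 1.00) and 0.24 with cpdA (limma adjusted p = 0.740). With LPS 3 and cpdA 3 left out the signs turned, to 0.067 and -0.067. Slc27a4 ranged from 970.3 to 1287.7 over the 9 libraries, a narrow spread with overlapping groups, and its log2 changes were 0.10 and 0.11 (limma adjusted p = 0.723 and 0.680), or 0.16 and 0.25 without LPS 3 and cpdA 3 (limma adjusted p = 0.353 and 0.379).

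Fabp4, the binding protein shared by adipocytes and macrophages, had normalized counts of 2218.3, 2222.9 and 1576.8 in LPS 1 to 3. The counts were 2229.2, 3354.6 and 2966.9 in DHA 1 to 3 and 2146.8, 1960.5 and 2688.3 in cpdA 1 to 3. All DHA libraries were above all LPS libraries, but DHA 1 exceeded LPS 2 only narrowly. The log2 change with DHA was 0.50 (SE 0.20; 95% interval 0.06 to 0.95), with an unadjusted p of 0.0296 and a limma adjusted p of 0.311. With cpdA the change was 0.18 (limma adjusted p = 0.703). Leaving out LPS 3 and cpdA 3 turned the cpdA value to -0.11. None of the 6 adipocyte markers was listed in the table, so the Fabp4 counts stand beside no measured adipocyte marker.

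Fabp5, the epidermal binding protein, was much more abundant, with 28490, 28641 and 14991 in LPS 1 to 3. The counts were 27477, 30951 and 29771 in DHA 1 to 3 and 26020, 25752 and 19416 in cpdA 1 to 3. LPS 3 and cpdA 3 were the lowest libraries, and all cpdA libraries lay below all DHA libraries. The log2 change was 0.35 with DHA (limma adjusted p = 0.541), and 0.04 without LPS 3 and cpdA 3. With cpdA it was 0.03 (limma adjusted p = 0.972), and -0.14 without those libraries. Between the pretreatments the difference was -0.32 (cpdA + LPS minus DHA + LPS), and -0.18 in the fit of the other 7 libraries (limma adjusted p = 0.754). Per kilobase, Fabp5 exceeded Fabp4 by 6.56-fold in cpdA 3 and by 8.38-fold to 11.9-fold in the other libraries.

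Acsl1, the synthetase that LPS induces in macrophages, had 17107, 16701 and 7042 normalized counts in LPS 1 to 3. The counts were 22062, 14672 and 19056 in DHA 1 to 3 and 21422, 20696 and 4583 in cpdA 1 to 3. LPS 3 and cpdA 3 were lowest, at -1.26 and -2.20 from the mean of the other libraries of their own group on the log2 scale. The highest library exceeded the lowest 4.81-fold over all 9 and 1.5-fold without those libraries. The log2 change was 0.54 with DHA (limma adjusted p = 0.696) and 0.0047 with cpdA (limma adjusted p = 0.997). In the 7 other libraries these values were 0.12 and 0.32, also short of the threshold (limma adjusted p = 0.673 and 0.474).

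An Acsl1 promoter window, 1 of 2 for this gene, is shown as the 1 window among the 10 with a sterol regulatory element, TCACCCCAC, the motif bound by SREBP, and because Acsl1 was the gene of the 10 in which LPS 3 and cpdA 3 differed most from the other libraries of their groups. This motif, searched on both strands, was in 0.551% of the 32851 windows. The excerpt lies on the plus strand at chr8:46490830-46490958 of GRCm38.p6, and the motif, in capitals as its reverse complement, starts 76 bases before the start:
Acsl1: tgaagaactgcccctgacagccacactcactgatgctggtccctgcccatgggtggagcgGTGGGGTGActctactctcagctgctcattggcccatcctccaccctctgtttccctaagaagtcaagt

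Beside these, the E-box CACGTG (7.15% of windows) was in 1 of the 3 Slc27a1 windows. The elements searched for LXR, AGGTCA repeated after 4 bases of any kind, for NF-kB, GGGA and TTTCC with 1 base between, for C/EBP, TTGCGCAA, and for AP-1, TGACTCA, were in 0.0152%, 0.411%, 0.183% and 5.20% of windows and in none of the 10. A match or its lack says only what letters these windows hold.

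Acsl3, a synthetase of the endoplasmic reticulum and lipid droplets, had 559.7, 526.6 and 388.8 in LPS 1 to 3. The counts were 267.5, 411.6 and 410.7 in DHA 1 to 3 and 270.9, 396.8 and 414.7 in cpdA 1 to 3. LPS 1 and LPS 2 were above all treated libraries and LPS 3 was within their range, while DHA 1 and cpdA 1 were the lowest. The log2 change was -0.45 with DHA and -0.45 with cpdA (limma adjusted p = 0.405 and 0.393). Without LPS 3 and cpdA 3 it was -0.61 and -0.73 (limma adjusted p = 0.130 and 0.244), and DESeq2 on those 7 libraries called both lower (adjusted p = 0.0407 and 0.0291), where it called 10.5% and 3.46% of genes. In edgeR on the same libraries fewer of the followed genes were called with DHA, and none with cpdA. Both count tests on those 7 libraries were chosen after seeing the data. LPS 3, the control left out there, was the lowest LPS library.

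The genes most like Acsl3 in pattern, among 11363, were Abca1, Gm2446 and Utp14b, at root mean square differences of 0.16, 0.17 and 0.17 beside 0.34 for the spread of Acsl3. Abca1, a cholesterol exporter, had 11093, 11915 and 9034 normalized counts in LPS 1 to 3, 6752, 8657 and 7750 in DHA 1 to 3, and 6556, 9503 and 7407 in cpdA 1 to 3. In Abca1 as in Acsl3, DHA 1 and cpdA 1 were the lowest libraries of their groups.

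Acsl4, which prefers arachidonic and related polyunsaturated acids, was the steadiest of the synthetases. It had 4742.0, 4736.2 and 4420.3 in LPS 1 to 3, 4088.3, 4234.2 and 4393.6 in DHA 1 to 3, and 3773.1, 4744.2 and 4147.9 in cpdA 1 to 3. All DHA libraries were below all LPS libraries, DHA 3 and LPS 3 almost meeting, and cpdA 2 was as high as LPS 1. The log2 change was -0.13 with DHA and -0.14 with cpdA (limma adjusted p = 0.595 and 0.568).

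Acsl5, a synthetase of mitochondria and endoplasmic reticulum, had 9881.8, 9795.0 and 7299.6 in LPS 1 to 3. The counts were 8751.8, 7222.3 and 8492.4 in DHA 1 to 3 and 8850.7, 9162.0 and 5384.7 in cpdA 1 to 3. LPS 3 and cpdA 3 were the lowest of their groups, and the groups overlapped. The log2 change was -0.13 with DHA and -0.23 with cpdA (limma adjusted p = 0.807 and 0.653). The fit of the other 7 libraries gave -0.28 and -0.13 (limma adjusted p = 0.119 and 0.743).

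Within a library the make-up of the synthetases can be read without the size factor. Acsl1 made up 55%, 54.6% and 38.9% of the summed Acsl level per kilobase in LPS 1 to 3. The share was 64.6%, 57.5% and 60.9% in DHA 1 to 3 and 64.2%, 61.2% and 33.8% in cpdA 1 to 3. All DHA libraries were above all LPS libraries, whereas cpdA 3 had the lowest share of the 9. The ratio of Acsl1 to Acsl5 was 1.76, 1.73 and 0.981 in LPS, 2.56, 2.07 and 2.28 in DHA + LPS, and 2.46, 2.30 and 0.866 in cpdA + LPS. In LPS 3 and cpdA 3 Acsl5 thus exceeded Acsl1 per kilobase, and in the other 7 libraries it did not. Acsl3 held 0.827% to 3.23% throughout.

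**Figure D4:**
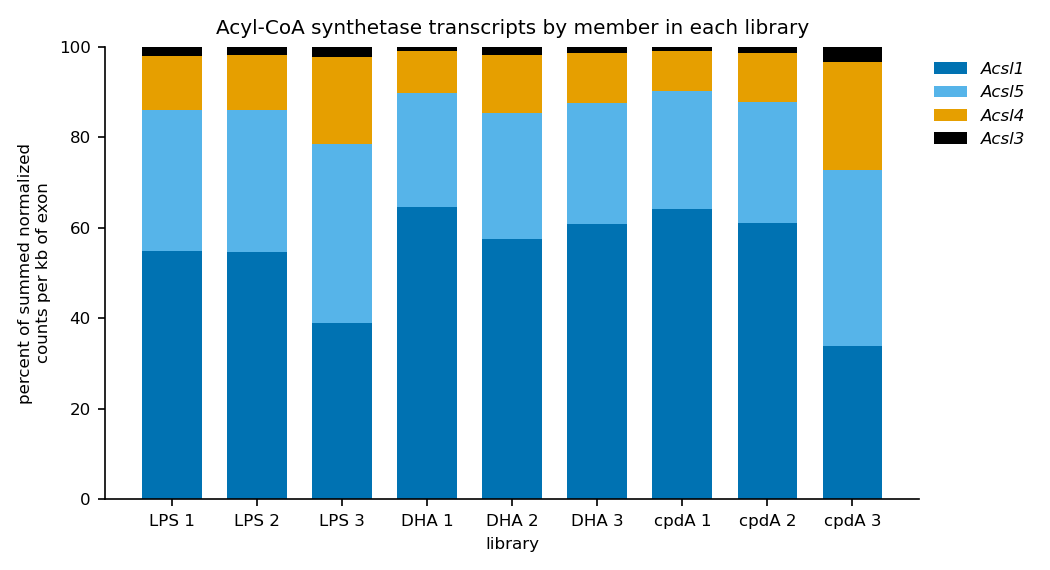
Share of each acyl-CoA synthetase in the summed normalized count per kilobase of exon, by library (percent, stacked to 100). Acsl1 is the largest part in 7 libraries, from 54.6% to 64.6%, and is 38.9% in LPS 3 and 33.8% in cpdA 3, where Acsl5 is larger.

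Of 52 other genes of uptake, binding and activation listed for comparison, 34 were in the table and 32 were kept. None passed the limma test in either comparison with LPS, and 3 were at an unadjusted p under 0.05 in each, beside 14.2% of all genes with DHA and 14.6% with cpdA. With DHA 21 of the 32 were positive, with a median log2 change of 0.12, and 10 were higher and 2 lower without overlap, beside 13.0% and 15.0% of all genes. With cpdA 20 were positive, with a median of 0.08, and 6 were higher and 0 lower without overlap, beside 10.7% and 12.2% of all genes. Without LPS 3 and cpdA 3, 11 were higher and 7 lower with DHA, and 11 higher and 8 lower with cpdA, where 40.6% and 49.5% of all genes were apart. The 8 acyl-CoA thioesterases, which split acyl-CoA again, had medians of 0.33 with DHA and 0.20 with cpdA. The 4 PPAR and RXR receptors had medians of 0.37 and 0.36 in the fit of all libraries. For Ppard, Pparg, Rxra and Rxrb the DHA changes were 0.16, 1.69, 0.11 and 0.095 without LPS 3 and cpdA 3. The cpdA changes of these receptors were 0.28, 0.11, 0.15 and 0.034 in that fit. All of these were lower than in the fit of all libraries, except Pparg with DHA, which was at 1.65 with all libraries.

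Acot2, a mitochondrial thioesterase and PPAR target, had 38.0, 36.9 and 47.1 normalized counts in LPS 1 to 3. The counts were 64.6, 90.2 and 73.4 in DHA 1 to 3 and 55, 64.8 and 125.0 in cpdA 1 to 3. Both treated groups lay wholly above LPS, with log2 changes of 0.88 and 0.90 (limma adjusted p = 0.287 and 0.252). Without LPS 3 and cpdA 3 it rose with DHA by 0.99 (limma adjusted p = 0.0198), where 6.79% of all genes were called, and with the replicate block in that fit the adjusted p of limma was 0.0515. Acot11, another thioesterase, had 127.2, 149.8 and 154.5 in LPS 1 to 3, 165.0, 285.3 and 217.0 in DHA 1 to 3, and 195.7, 164.0 and 338.6 in cpdA 1 to 3. It was also wholly above LPS in both groups, with cpdA 3 highest, and its log2 changes were 0.60 and 0.62 (limma adjusted p = 0.373 and 0.349). In the other 7 libraries they were 0.65 and 0.37 (limma adjusted p = 0.0801 and 0.590).

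Pparg, which encodes PPARγ, had 75.0, 62.2 and 75.7 in LPS 1 to 3. The counts were 89.2, 471.3 and 263.8 in DHA 1 to 3 and 79.4, 68.9 and 320.5 in cpdA 1 to 3. DHA 2, DHA 3 and cpdA 3 were high and the other libraries were close together. Its log2 change was 1.65 with DHA, without overlap, and 0.76 with cpdA (limma adjusted p = 0.329 and 0.632). In the fit without LPS 3 and cpdA 3 the cpdA value was 0.11. Fabp7, the brain-type binding protein, was higher without overlap with DHA, by 0.77 on the log2 scale (limma adjusted p = 0.492), as was Cav1, the main protein of caveolae, by 0.51 (limma adjusted p = 0.773). For Fabp7 and Cav1 the fit of the other 7 libraries gave 0.49 and 0.33 (limma adjusted p = 0.108 and 0.128). In cpdA 3 Cav1 was at 594.0, against 2417.8 to 5179.5 in the other libraries.

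Aacs, which activates acetoacetate for lipid synthesis, was named because the fit without LPS 3 and cpdA 3 called it, a choice made after its values were seen. It had 1939.0, 1817.3 and 1060.0 in LPS 1 to 3, 1301.8, 1296.7 and 1232.0 in DHA 1 to 3, and 1325.8, 1354.5 and 904.5 in cpdA 1 to 3. With all 9 libraries both treated groups overlapped LPS. The log2 changes were then -0.28 with DHA and -0.40 with cpdA (limma adjusted p = 0.597 and 0.452). Without LPS 3 and cpdA 3, Aacs fell by 0.56 with DHA and fell by 0.49 with cpdA (limma adjusted p = 0.00202 and 0.0144), among 6.79% and 1.60% of all genes called. LPS 3, left out there, was below every DHA library. Leaving out 1 of these libraries did not give the call: with DHA the change was -0.56 without LPS 3 alone (limma adjusted p = 0.460) and -0.28 without cpdA 3 alone (limma adjusted p = 0.442). With cpdA the change was -0.67 without LPS 3 alone (limma adjusted p = 0.316).

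**Figure D5:**
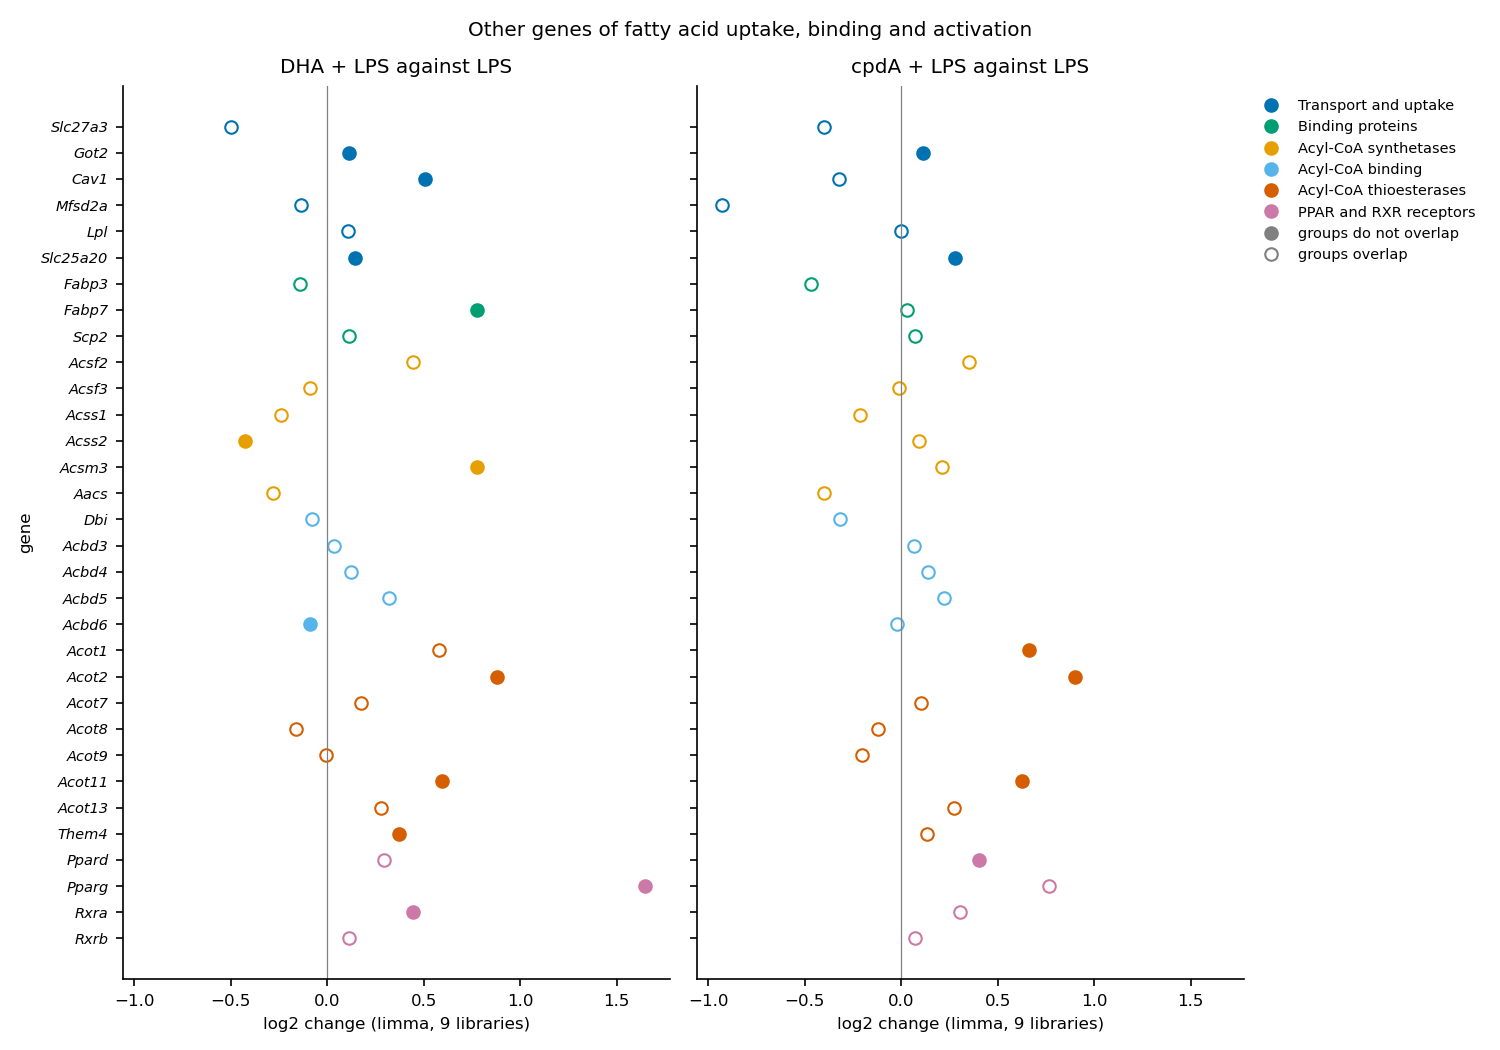
Log2 change of the 32 other genes of the pathway in both comparisons with LPS (limma, 9 libraries), coloured by role. Filled points mark genes whose groups do not overlap, 12 with DHA and 6 with cpdA, and Pparg with DHA is the point farthest to the right.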

How the data were processed

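RNA-seq values of 9 libraries were used, 3 per group by title. The deposited signal values are normalized counts, read counts that the authors divided by 1 size factor per library; CASAVA 1.8.2, Bowtie2, DESeq and build mm9 are named per the submitters' processing notes. How genes were counted, with which annotation and strand setting, is not given in the sources used here. Reads of overlapping or antisense genes therefore cannot be told apart. Growth and extraction texts of the labels describe another kind of experiment and were not used. Members and lists were chosen with earlier results of these data known.

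Genes with a value of at least 10 in at least 3 libraries were kept, 13895 of 15343. Log2(value + 1) was fitted with limma 3.58.1 (R 4.3.3, statmod 1.5.0), all 9 libraries in 1 fit, with trend and robust options, and Benjamini-Hochberg adjusted p-values had a threshold of 0.05. Changes on this log2 scale understate those of low genes. In each library 100% of values above 0 were whole multiples of the worth of 1 read (within 0.05 plus rounding). The recovered reads were tested with edgeR 4.0.16 (quasi-likelihood), which called 3 genes for DHA and 1 for cpdA, and DESeq2 1.42.0, which called 315 and 391. The tests were also run on simulated data whose spread came from the 7 libraries without LPS 3 and cpdA 3. That run cannot tell how the tests behave when those libraries are included. Other pathway genes were named if past the test, or if groups did not overlap and the higher group had a mean of 50 or more, with a log2 change of at least 0.5. Likeness was measured for the member with the largest change among those with such a mean. Levels per kilobase used union exons of GENCODE vM21 (GRCm38), and promoters came from RefSeq (GRCm38.p6).

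What a shared replicate number stands for is not stated. Deviations of same-number libraries correlated at 0.387, 0.234 and 0.437 between LPS and cpdA, each above the limit of 0.1 set for pairing, and at 0.140, -0.0654 and 0.0199 between LPS and DHA. Libraries of unlike number, LPS 2 with cpdA 1 (0.292) and LPS 1 with cpdA 2 (0.264), exceeded the lowest of the like pairs. Between DHA and cpdA the same-number libraries correlated at 0.407, -0.345 and 0.0130. The highest correlation of all pairs was between libraries of unlike number, DHA 2 with cpdA 3 (0.452). The values printed come from the fit without the block, and the block changed no call of these pathway genes in the 9-library fit. LPS 3 and cpdA 3 both stand apart, so these values are not separate evidence. Alternatives were other pseudocounts, no filter, TMM scaling, limma without its options, the replicate number as a block, fits of only the compared libraries, the count tests, each library left out, and fits without LPS 3 and cpdA 3. Count tests on 7 libraries and fits without DHA 1 and cpdA 1, or without LPS 3, cpdA 3 and DHA 1, were chosen after seeing the data.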

Additional observations from a re-analysis of the deposited data

How the results depend on the processing

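No gene of the 10 passed in limma with other pseudocounts, no filter, TMM scaling, limma without its options, only the libraries compared or without DHA 1 and cpdA 1, or in edgeR, in any comparison. The replicate block on all 9 libraries gave 0 of 10 in every comparison and changed no call. The F test has no value with only the libraries compared. Leaving out 1 library at a time gave 0 to 1 of the 10 for DHA against LPS, the 1 being Slc27a6 without cpdA 3, and 0 in the other comparisons. The fit without cpdA 3 called 2.68% of all genes for DHA. DESeq2 gave 1 for DHA against LPS (2.31% of all genes tested) and 1 in the F test (2.79%). Limma without LPS 3 and cpdA 3 gave 1 in both, and for the 32 other genes 2 for DHA, 1 for cpdA and 1 in the F test. It called 6.79% of all genes for DHA, 1.60% for cpdA and 3.27% in the F test. With the replicate block in that fit the 10 gave 0, and the others 1, 1 and 1, where 549 of all 13895 genes were called for DHA and 171 for cpdA. In edgeR on those 7 libraries the 10 gave 1 for DHA and 1 in the F test, and the others 2 for DHA, 2 for cpdA and 2 in the F test. Of all genes it called 8.33% for DHA, 2.09% for cpdA and 4.30% in the F test. DESeq2 on those 7 libraries gave 3 for DHA, 1 for cpdA, 1 for cpdA against DHA and 4 in the F test. For the others it gave 5 for DHA, 2 for cpdA and 2 in the F test. Of all genes tested it called 10.5% for DHA, 3.46% for cpdA, 0.0288% for cpdA against DHA and 7.96% in the F test. Without LPS 3, cpdA 3 and DHA 1 limma gave 5, 1, 2 and 6 of the 10 and 12, 4, 4 and 12 of the others. There it called 23.1% of all genes for DHA, 5.25% for cpdA, 8.74% for cpdA against DHA and 21.1% in the F test. The calls of this last fit came from 2 libraries per group. Removing LPS 3 and cpdA 3, which stood apart from their groups, narrows the spread by construction, here and in every fit of those 7 libraries. DHA 1 was less clearly apart. Its median absolute log2 difference was 0.193 from DHA 2 and 0.145 from DHA 3, and DHA 2 and DHA 3 differed by 0.132.

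The following log2 changes had the opposite sign to the 9-library fit, and the cause was not tested. With TMM scaling, they were, for DHA against LPS Slc27a1 at 0.0058. In edgeR on recovered reads, they were, for DHA against LPS Slc27a1 at 0.027, for cpdA against LPS Fabp5 at -0.011. In DESeq2 on recovered reads, they were, for DHA against LPS Slc27a1 at 0.023, for cpdA against LPS Fabp5 at -0.016. In limma without LPS 3 and cpdA 3, they were, for DHA against LPS Slc27a1 at 0.067, for cpdA against LPS Slc27a1 at -0.067, Fabp4 at -0.11 and Fabp5 at -0.14, for cpdA against DHA Slc27a1 at -0.13, Cd36 at -0.094, Acsl1 at 0.20 and Acsl5 at 0.15. With the replicate block in that fit, they were, for DHA against LPS Slc27a1 at 0.080, for cpdA against LPS Slc27a1 at -0.067, Fabp4 at -0.11 and Fabp5 at -0.14, for cpdA against DHA Slc27a1 at -0.15, Cd36 at -0.044, Acsl1 at 0.23, Acsl4 at 0.024 and Acsl5 at 0.18. In edgeR on those 7 libraries, they were, for DHA against LPS Slc27a1 at 0.12, for cpdA against LPS Slc27a1 at -0.060, Slc27a6 at -0.00028, Fabp4 at -0.11 and Fabp5 at -0.14, for cpdA against DHA Slc27a1 at -0.18, Cd36 at -0.12, Acsl1 at 0.16 and Acsl5 at 0.13. In DESeq2 on those 7 libraries, they were, for DHA against LPS Slc27a1 at 0.10, for cpdA against LPS Slc27a1 at -0.060, Fabp4 at -0.11 and Fabp5 at -0.14, for cpdA against DHA Slc27a1 at -0.16, Cd36 at -0.10, Acsl1 at 0.17 and Acsl5 at 0.14. Without DHA 1 and cpdA 1, they were, for DHA against LPS Slc27a1 at 0.14, for cpdA against LPS Fabp5 at -0.043 and Acsl1 at -0.37, for cpdA against DHA Acsl4 at 0.041. Without LPS 3, cpdA 3 and DHA 1, they were, for DHA against LPS Slc27a1 at 0.21 and Acsl1 at -0.016, for cpdA against LPS Slc27a1 at -0.067, Fabp4 at -0.11 and Fabp5 at -0.14, for cpdA against DHA Slc27a1 at -0.27, Cd36 at -0.15, Acsl1 at 0.33 and Acsl5 at 0.20. With each library left out in turn, the values that turned sign ranged, for DHA against LPS Slc27a1 from -0.15 to 0.14, for cpdA against LPS Slc27a1 from -0.14 to 0.49, Fabp5 from -0.28 to 0.19, Acsl1 from -0.42 to 0.74 and Acsl5 from -0.37 to 0.016, for cpdA against DHA Slc27a1 from -0.13 to 0.50, Slc27a4 from -0.065 to 0.090, Cd36 from -0.094 to 0.21, Acsl1 from -0.91 to 0.20, Acsl3 from -0.21 to 0.19, Acsl4 from -0.099 to 0.066 and Acsl5 from -0.24 to 0.15. None of these passed in the 9-library fit. Depth limits Slc27a6, with 11.3 to 16.1 normalized counts in LPS libraries, and DHA 1, the shallowest library.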
